A study of Homo sapiens with 6 samples.

Results

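Interferon-stimulated genes are transcribed when a cell senses interferon or foreign nucleic acid, and 44 of them, chosen by symbol, are described here across 6 RNA-seq libraries. All 44 were among the 25330 gene symbols of the deposited raw count table, and all 44 were among the 14199 genes with enough counts to be tested. The libraries come from the untreated human cell line MDA-MB-231, which derives from a breast tumour of the triple-negative type. They comprise 3 libraries labelled CTRV2 control and 3 labelled RNASEH2A KO, a knockout of the catalytic subunit of RNase H2, which removes ribonucleotides from DNA and cuts RNA in RNA-DNA hybrids. RNA of each group came from 3 passages, the batch label is the same for all libraries, and the sources used here do not say whether the knockout is 1 clone or a pool. P-values therefore measure the spread between passages and not between independently made knockouts. An effect of the knockout cannot be separated from other differences between the control and knockout cells. Below, rose and fell mean higher and lower in the knockout libraries. In bulk RNA, fewer cells with a transcript and less transcript per cell cannot be told apart.

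Interferons bind receptors that activate the kinases JAK1 and TYK2, which phosphorylate transcription factors of the STAT family. STAT2 and IRF9 are subunits of ISGF3, a complex that binds the interferon-stimulated response element (ISRE) in the promoters of its targets. The gamma-activated site (GAS) is a separate promoter element, used mainly after interferon gamma. The targets include transcription factors that extend the response, sensors of viral RNA, the ubiquitin-like protein ISG15 with its enzymes, and effectors that block steps of viral replication. Loss of RNase H2 activity in humans underlies Aicardi-Goutières syndrome, an inherited disease with raised interferon-stimulated transcripts, which is why these genes are of interest in a knockout of RNASEH2A.

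Promoter letters are shown for members that passed the test below and for 3 that did not, so that the sequence can be read beside the measured change. The ISRE core was searched as GAAA, any 2 bases (NN) and again GAAA, which reads TTTC, NN and TTTC on the other strand, and GAS as TTCNNNGAA, which reads the same on both strands. Windows ran from 250 bases before to 50 after each annotated start, from RefSeq on GRCh38.p14, and 35 of the 44 members had one. An ISRE core was found in 23 of these 35 promoters (65.7%), against 3.65% of 27305 promoters of the same length and 2.82% of the 11034 that belong to tested genes. A GAS match was found in 9 of 35 (25.7%), against 7.88% of all promoters, and in 4 members the GAS and ISRE letters overlapped. Of the 7 members that passed, 6 had a window and 5 of these 6 an ISRE core, against 18 of 29 that did not pass. A match describes letters only and is not evidence of binding. Capitals mark the ISRE core, except for IFI35, where no ISRE core was found and capitals mark GAS. Sequences read 5′ to 3′ on the strand of the gene.
DDX60, chr4:168318788-168318848, minus strand: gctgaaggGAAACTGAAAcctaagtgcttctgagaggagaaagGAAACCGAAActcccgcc
IFI27, chr14:94110620-94110658, plus strand: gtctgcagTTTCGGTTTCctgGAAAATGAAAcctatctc
IFIT3, chr10:89327833-89327892, plus strand: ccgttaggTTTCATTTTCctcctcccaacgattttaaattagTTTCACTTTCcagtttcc
IFIT5, chr10:89414515-89414566, plus strand: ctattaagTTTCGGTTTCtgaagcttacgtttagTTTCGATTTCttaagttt
TRIM21, chr11:4393663-4393692, minus strand: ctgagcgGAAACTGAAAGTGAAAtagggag
IFI35, chr17:43006754-43006778, plus strand: gcagggatTTCACGGAAatgaaagt
ISG15, chr1:1013376-1013407, plus strand: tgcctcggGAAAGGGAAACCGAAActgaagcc
IFIT1, chr10:89392499-89392537, plus strand: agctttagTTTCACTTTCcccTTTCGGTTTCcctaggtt
BST2, chr19:17405737-17405768, minus strand: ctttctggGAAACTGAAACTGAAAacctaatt
The matches shown lie before the start that the promoter table uses, except in TRIM21, where they begin 17 and 23 bases after it. For DDX60 and IFI27 that start lies inside the gene's full RefSeq span given below, so these windows belong to a start other than the outermost. ISG15, IFIT1 and BST2, which did not pass, carry paired or overlapping ISRE cores much as IFI27 and IFIT3 do, which passed. IFIT3 rose and IFIT5 fell, and the matches shown for both are in the TTTC orientation; IFIT5 has a further match nearer its start that is not shown.

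Library totals ran from 25419877 to 31596286 counts. The RNASEH2A transcript itself was counted at 10, 6 and 15 reads in controls and 7, 8 and 16 in knockouts, and 40.8% of the exonic bases of its principal GENCODE 29 transcript are shared with THSD8 on the same strand. Its count thus does not check the labels, and every direction below rests on them. Of 8 markers for the line, 7 were well counted, among them VIM at 684 to 761 CPM (counts scaled to library size, on the TMM scale) and AXL at 1738 to 2030 CPM, while SPARC stayed at 0.575 to 1.33 CPM. Of 6 hormone receptor and luminal markers listed as low or absent, ESR1 was at 0 in every library, PGR at 0.431 CPM or less and CDH1 at 0.216 to 2.29 CPM, but EPCAM was at 13.1 to 22 CPM, GATA3 at 29.5 to 38.4 and ERBB2 at 109 to 127. PGR had 0, 2 and 0 counts in controls and 10, 12 and 8 in knockouts. Of the listed leukocyte markers MS4A1 was at 0 throughout and the summed level of the list was 4.39 to 5.05 CPM in controls and 2.62 to 4.36 in knockouts, mostly CD14. IL3RA, the only counted marker of plasmacytoid dendritic cells, the main interferon producers of blood, was at 0.144 to 0.281 CPM.

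Most members did not pass the test between the groups, which alone does not show that they were unchanged. Of the 44, 6 rose, 1 fell and 37 did not pass (edgeR quasi-likelihood test, Benjamini-Hochberg adjusted p under 0.05 over all tested genes). IFI27, IFI35, IFIT3, DHX58, DDX60 and TRIM21 were higher in the knockout, by 1.30-fold to 1.80-fold, and IFIT5 was lower, at 0.842 of the control level. The share called was 15.9% of members, against 12.1% of all tested genes. Split by direction, 13.6% of members were called higher against 5.88% of all genes, and 2.27% lower against 6.22%. The median log2 fold change of the members was 0.14, against 0.00 over all tested genes, and 31 of 44 lay above 0 (70.5%, against 50.6%). An unadjusted p under 0.05 was reached by 18 members (40.9%, against 27.7%). Control and knockout values did not overlap at 19 members (43.2%, against 33.5%). The knockout was above at 14 of the 44 and below at 5, where it was above at 16.1% of all tested genes and below at 17.4%. For 27 of the 44 (61.4%, against 63.5%) the 95% interval of the fold change lay wholly within 1.5-fold in either direction, and the highest upper bound of any member was 2.30-fold, for DHX58. Scaling by RLE factors or by library totals alone gave 6 higher and 0 lower, since IFIT5 no longer passed.

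**Figure D1:**
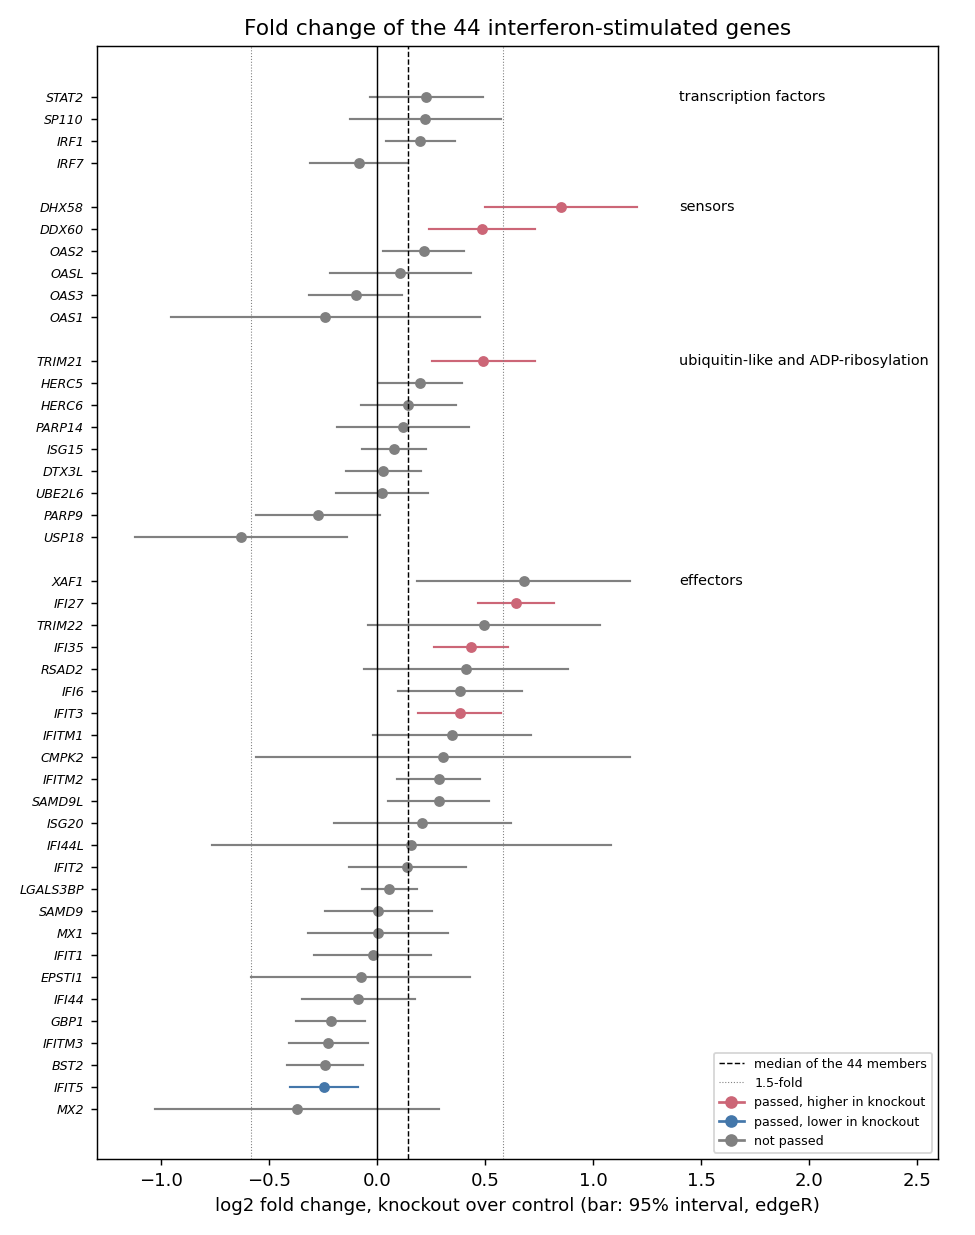
Log2 fold change of each of the 44 members, knockout over control, grouped by branch and ordered by size within it. Points are edgeR estimates and bars 95% intervals, with the dashed line at the members' median of 0.14 and dotted lines at 1.5-fold. The 6 red points passed as higher and the single blue point, IFIT5, as lower.

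The upward lean of the list was carried unevenly by the libraries. Control replicate 1 was the lowest of the 6 libraries for 23 members (52.3%, against 16.5% of all tested genes), and knockout replicate 1 was the highest for 17 (38.6%, against 22.5%). The other control libraries were lowest for 3 and 4 members, and the other knockouts highest for 5 and 8. The same pair also stood apart from their group over all genes: by a chi-square statistic per degree of freedom, knockout replicate 1 differed from its group by 34.2 and 22.2, where knockout replicates 2 and 3 differed by 6.61. Control replicate 1 differed from its group by 11.4 and 10.2, where control replicates 2 and 3 differed by 2.45. The listed fibroblast markers, mostly COL1A2, which breast cancer lines can also express, summed to 65.96 CPM in knockout replicate 1 and 32.2 to 45.6 CPM in the other libraries. Their part in the result was not tested.

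Control replicate 1 and knockout replicate 1 held the lowest or highest value for many members. A lower median without them thus follows in part from that choice. Without those 2 libraries, an alternative chosen after the data were seen, the median of the members was 0.02 and 24 of 44 lay above 0. The count was then 9 higher and 7 lower (36.4%, against 30.4% of all tested genes), and all 7 members that passed with 6 libraries were again called in the same direction. Added on the higher side were IRF1, IFITM2 and XAF1, and on the lower side USP18, PARP9, IFITM3, BST2, MX2 and GBP1. The count also moved with single libraries, and so did the share over all tested genes. Without control replicate 3 only IFI27 passed (2.27%, against 3.79% of all genes), and without knockout replicate 3 only IFI27 and IFI35 (4.55%, against 3.61%). Without knockout replicate 1 there were 9 higher and 5 lower (31.8%, against 23.8%). IFI27 alone was called under each of 14 other settings, of which 6 leave out 1 library.

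**Figure D2:**
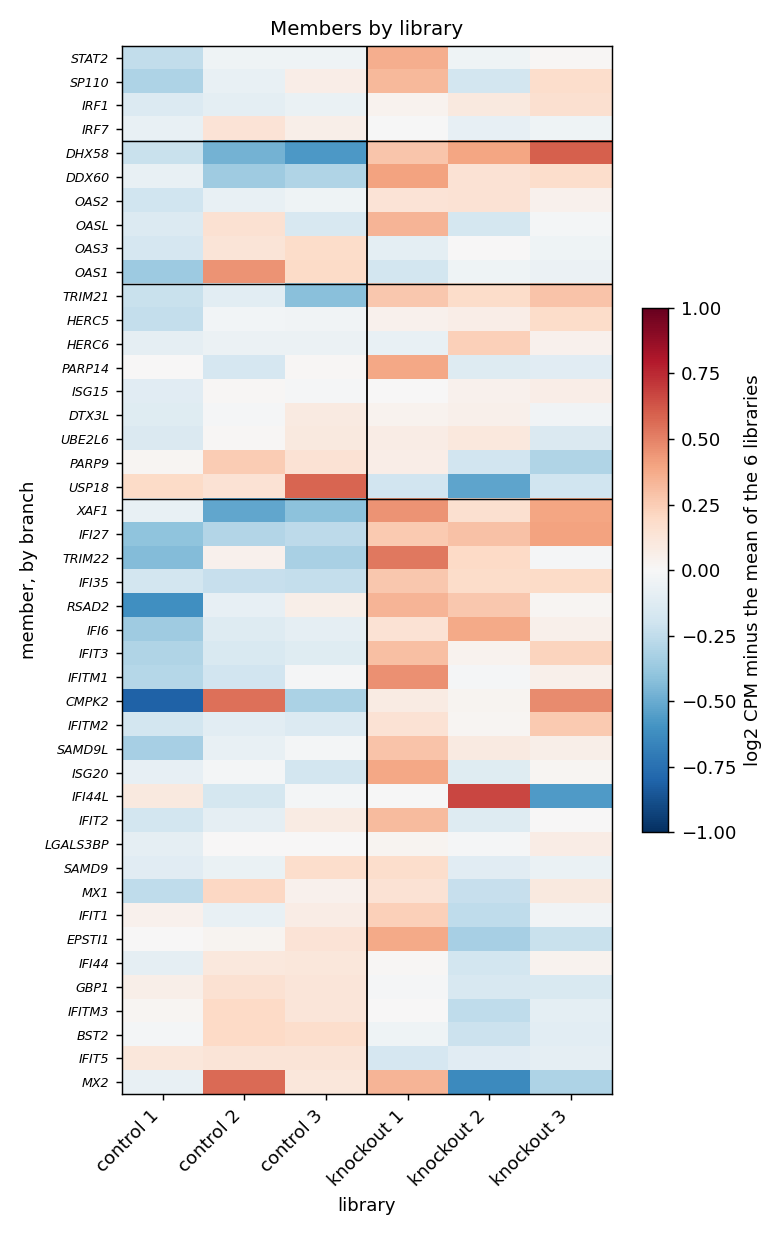
Log2 CPM of each member in each library, minus that member's mean over the 6 libraries, with red above and blue below the mean. Rows are grouped by branch as transcription factors, sensors, ubiquitin-like and ADP-ribosylation genes, and effectors. Control 1 is bluest and knockout 1 reddest for many members, while DHX58, IFI27 and IFI35 separate the groups in every library.

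None of the 4 transcription factors passed in edgeR, DESeq2 or limma-voom, where edgeR called 12.1% of all tested genes. An unadjusted edgeR p under 0.05 was reached by 1 of the 4 (25%, against 27.7% of all tested genes). Counts this small do not set the branch apart from that background. The median log2 fold change of the 4 was 0.21. STAT2, the ISGF3 subunit with the activation domain (chromosome 12, 56341597 to 56360107, GRCh38.p14), was at 34.4, 39.6 and 39.6 CPM in controls and 52.4, 39.5 and 41.0 in knockouts. Knockout replicate 1 was the highest, knockout replicate 3 was just above the controls and knockout replicate 2 was among them (log2 fold change 0.23 ± 0.12 SE, adjusted p = 0.241). IRF1, an interferon-induced activator of antigen presentation and antiviral genes, was at 44.9, 46.1 and 47.0 CPM in controls and 50.5, 52.8 and 55.2 in knockouts. Its groups did not overlap, but the difference was small and did not pass (0.20 ± 0.07 SE, adjusted p = 0.101). IRF7, which amplifies the production of interferon alpha, was at 13.5, 15.6 and 14.8 CPM against 14.2, 13.4 and 13.8, and the groups overlapped (-0.09 ± 0.10 SE, adjusted p = 0.635). SP110, a nuclear body protein that can act as a transcriptional coregulator, ranged from 8.77 to 13.6 CPM and did not pass (0.22 ± 0.16 SE).

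Of 6 sensors 2 rose, and both are helicases. The share called was 33.3%, all of it higher, against 12.1% of all tested genes called and 5.88% called higher. DHX58 (chromosome 17, 42101411 to 42112714) encodes LGP2, which tunes the RNA sensors RIG-I and MDA5. It was at 5.23, 4.38 and 4.09 CPM in controls and 7.41, 8.05 and 9.31 in knockouts. Every knockout library exceeded every control, and the gene had the largest log2 fold change of the 44 (0.85 ± 0.16 SE, adjusted p = 0.00906). DDX60 (chromosome 4, 168216294 to 168325979), a helicase linked to RIG-I signalling, was at 25.2, 20.7 and 21.4 CPM in controls and 35.1, 29.2 and 29.9 in knockouts. The groups were again apart (0.49 ± 0.11 SE, adjusted p = 0.0202). Without control replicate 3 or knockout replicate 3 neither gene passed, and DDX60 also did not pass without control replicate 2, and over their alternatives the adjusted p reached 0.0583 for DHX58 and 0.102 for DDX60.

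The 2′-5′-oligoadenylate synthetases, which detect double-stranded RNA and make the activator of RNase L, did not pass. They lie together on chromosome 12 between 112906962 and 113011723. OAS1 was low, at 0.709, 1.30 and 1.07 CPM in controls and 0.810, 0.898 and 0.891 in knockouts (-0.24 ± 0.32 SE, adjusted p = 0.675). OAS2 was at 25.5, 27.8 and 28.5 CPM against 32.2, 32.4 and 30.3, with no overlap (0.21 ± 0.08 SE, adjusted p = 0.126). OAS3 was at 50.4, 61.8 and 64.2 CPM against 52.9, 56.6 and 54.9, with its knockout values inside the control range (-0.10 ± 0.10 SE, adjusted p = 0.546). OASL, a relative without synthetase activity, ranged from 16.03 to 22.8 CPM and did not pass (0.11 ± 0.15 SE).

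Among 9 genes of ISG15 conjugation, ubiquitin and ADP-ribosylation, TRIM21 rose and 8 did not pass, with a median log2 fold change of 0.08. The share called was 11.1%, all of it higher, against 12.1% of all tested genes called and 5.88% called higher. TRIM21 (chromosome 11, 4384897 to 4393702) encodes a cytosolic antibody receptor and ubiquitin ligase. It was at 13.9, 15.2 and 12.2 CPM in controls and 19.7, 18.6 and 19.9 in knockouts. The knockout values sat close together and above all controls (0.49 ± 0.11 SE, adjusted p = 0.0172). The call ended without control replicate 1, control replicate 3 or knockout replicate 3, with an adjusted p of up to 0.0875.

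No gene of ISG15 conjugation or removal passed in edgeR, DESeq2 or limma-voom, where edgeR called 12.1% of all tested genes. Of these 5, 2 had an unadjusted edgeR p under 0.05, as did 27.7% of all tested genes. ISG15, the ubiquitin-like modifier (chromosome 1, 1013497 to 1014540), was at 84.6, 92.2 and 90.7 CPM in controls and 91.9, 94.3 and 96.0 in knockouts, and the groups overlapped (0.08 ± 0.07 SE, adjusted p = 0.484). Its fold change had a 95% interval of 0.954 to 1.17, so a change of 1.5-fold lay outside it. UBE2L6, its conjugating enzyme, was at 49.1, 54.5 and 58.2 CPM against 57.1, 58.3 and 48.9 (0.02 ± 0.09 SE, adjusted p = 0.903, interval 0.877 to 1.18). HERC5, the main ISG15 ligase in human cells, ranged from 35.0 to 47.1 CPM and had no overlap but did not pass (0.20 ± 0.09 SE, adjusted p = 0.173), and HERC6 ranged from 23.1 to 29 CPM. USP18 removes ISG15 from proteins and, apart from that, restrains signalling at the receptor subunit IFNAR2. It was at 2.83, 2.74 and 3.73 CPM in controls and 2.15, 1.69 and 2.14 in knockouts. All 3 knockout values were below the controls, but the level was low and the difference did not pass (-0.63 ± 0.22 SE, adjusted p = 0.0937).

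PARP9, a member of the ADP-ribosyltransferase family, works in a complex with the ubiquitin ligase DTX3L, and the genes lie head to head on chromosome 3. PARP9 was at 12.7, 14.98 and 13.9 CPM in controls and 13.2, 10.96 and 10.2 in knockouts, with knockout replicate 1 inside the control range (-0.27 ± 0.13 SE, adjusted p = 0.195). DTX3L ranged from 50.4 to 58.5 CPM (0.03 ± 0.08 SE, adjusted p = 0.848). PARP14, a neighbouring ADP-ribosyltransferase, was at 55.6 CPM in knockout replicate 1 and 37.7 to 42.7 in the other libraries (0.12 ± 0.14 SE).

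Of the 25 effectors 3 rose, 1 fell and 21 did not pass, with a median log2 fold change of 0.16. The share called was 16%, against 12.1% of all tested genes. Split by direction, 12% were called higher against 5.88% of all genes, and 4% lower against 6.22%. The 4 IFIT genes encode tetratricopeptide repeat proteins, some of which bind viral or translation-linked RNA. The genes sit side by side on chromosome 10 between 89302046 and 89420997. IFIT3 was at 79.9, 88.3 and 90.5 CPM in controls and 121, 101 and 115 in knockouts, with no overlap (0.38 ± 0.09 SE, adjusted p = 0.0193). IFIT5 was at 47.1, 47.8 and 47.8 CPM against 38.7, 40.4 and 41.1, and was lower in every knockout library (-0.25 ± 0.07 SE, adjusted p = 0.0494). IFIT3 and IFIT5 thus differed in direction within the same gene cluster. In a ratio chosen after the values were seen, IFIT3 stood at 1.70, 1.85 and 1.89 times IFIT5 in controls and 3.13, 2.50 and 2.79 times in knockouts.

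IFIT1, a sensor of unusually capped RNA, was at 34.7, 31.99 and 35.5 CPM in controls and 39.6, 28.2 and 32.8 in knockouts. Its knockout values spread around the controls (-0.02 ± 0.12 SE, adjusted p = 0.931, interval of the fold 0.817 to 1.19). IFIT2, which promotes cell death when it accumulates, was at 39.6, 42.2 and 47.5 CPM against 56.0, 41.1 and 45.1, and only knockout replicate 1 lay above the controls (0.14 ± 0.12 SE, adjusted p = 0.498). The IFIT3 call ended when any 1 control library or knockout replicate 3 was left out (adjusted p up to 0.0952). The IFIT5 call was close to the threshold and was lost in 9 of the 14 other settings (adjusted p up to 0.179).

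The 4 membrane effectors did not pass in edgeR, and none had groups that overlapped, with the knockout above at 2 and below at 2. Groups also did not overlap at 33.5% of all tested genes. The margin was narrowest for IFITM1, with a control and a knockout library both at 6.86 CPM. IFITM1, IFITM2 and IFITM3 block fusion of viruses with cell membranes and lie within chromosome 11, 307816 to 320860. IFITM3 was at 168, 190 and 180 CPM in controls and 166, 139 and 155 in knockouts (-0.23 ± 0.08 SE, adjusted p = 0.101). IFITM2 was at 29.4, 31.0 and 30.3 CPM against 36.8, 33.9 and 39.9 (0.29 ± 0.09 SE, adjusted p = 0.0606), and DESeq2 called it higher. IFITM1, the lowest of the 3 at 5.67 to 9.53 CPM, did not pass (0.35 ± 0.16 SE, adjusted p = 0.202). These genes are similar copies. Apart from that, annotated exons of IFITM2 cover 41.1% of the exonic bases of IFITM1 on the same strand in GENCODE 29. How reads divide among these genes is thus uncertain. BST2, or tetherin, which holds budding virions at the cell surface (chromosome 19, 17402939 to 17405630), was at 141, 163 and 161 CPM in controls and 138, 122 and 132 in knockouts (-0.24 ± 0.08 SE, adjusted p = 0.0756). It lay below every control in every knockout library, and was called lower without control replicate 1 or without knockout replicate 1.

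None of the 3 GTPases passed in edgeR, DESeq2 or limma-voom, where edgeR called 12.1% of all tested genes. An unadjusted edgeR p under 0.05 was reached by 1 (33.3%, against 27.7% of all tested genes). MX1, which traps viral nucleocapsids and is widely read as an interferon marker, was at 13.3, 18.2 and 16.3 CPM in controls and 17.5, 13.4 and 16.9 in knockouts. The groups covered the same range (0.00 ± 0.14 SE, adjusted p = 0.992, interval of the fold 0.801 to 1.25). GBP1, a guanylate-binding protein induced strongly by interferon gamma, ranged from 59.7 to 73.9 CPM and was lower in all 3 knockouts but did not pass (-0.22 ± 0.07 SE, adjusted p = 0.0818). MX2 was at 1.58 to 3.72 CPM. Of the 5 genes of nucleotide and nucleic acid metabolism, RSAD2, CMPK2, ISG20, SAMD9 and SAMD9L, none passed in edgeR, DESeq2 or limma-voom. Only SAMD9L had an unadjusted edgeR p under 0.05 (20%, against 27.7% of all tested genes). All 5 had log2 fold changes at or above 0, from 0.00 in SAMD9 to 0.41 in RSAD2, which encodes viperin, and CMPK2 stayed at 0.574 to 1.58 CPM. RSAD2 ranged from 2.46 to 4.83 CPM, ISG20 from 3.65 to 5.45, SAMD9 from 29.1 to 35.7 and SAMD9L from 30.5 to 46.97.

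The remaining 9 effectors included 2 that rose, IFI27 and IFI35 (22.2% called higher, against 5.88% of all tested genes). IFI27 (chromosome 14, 94105894 to 94116690), a small mitochondrial and nuclear-envelope protein often used in interferon scores, was at 32.4, 34.9 and 35.8 CPM in controls and 51.6, 52.6 and 56.8 in knockouts. The gap between the groups was far wider than the spread within either (0.64 ± 0.08 SE, adjusted p = 0.00144, 1.56-fold with an interval of 1.38 to 1.77). Over the 14 other settings its log2 fold change ran from 0.60 to 0.67 and its adjusted p reached at most 0.0148. IFI35 (chromosome 17, 43006784 to 43014456), a leucine zipper protein that binds NMI, was at 25.4, 24.7 and 24.6 CPM in controls and 34.9, 32.9 and 33.1 in knockouts. Both groups were tight and apart (0.43 ± 0.08 SE, adjusted p = 0.00775), and the call was lost only without control replicate 3 (adjusted p = 0.0535).

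XAF1, which promotes apoptosis, had a low level, at 2.13, 1.54 and 1.67 CPM in controls and 3.08, 2.52 and 2.96 in knockouts. It did not pass (0.68 ± 0.22 SE, adjusted p = 0.0756), and 70.0% of its principal exonic bases lie opposite PRAL on the other strand, and the sources used here do not give the strand setting of the counting. IFI6, a mitochondrial and endoplasmic reticulum protein, ranged from 9.25 to 15.4 CPM, did not overlap between groups, and did not pass (0.38 ± 0.13 SE, adjusted p = 0.0828). IFI44, EPSTI1, TRIM22 and LGALS3BP did not pass, at log2 fold changes of -0.09, -0.08, 0.50 and 0.06. IFI44 ranged from 10.3 to 12.7 CPM, EPSTI1 from 2.44 to 4.05, TRIM22 from 1.69 to 3.36 and LGALS3BP from 632 to 708. IFI44L, commonly a strong interferon marker, was counted at only 0.357 to 0.934 CPM.

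**Figure D3:**
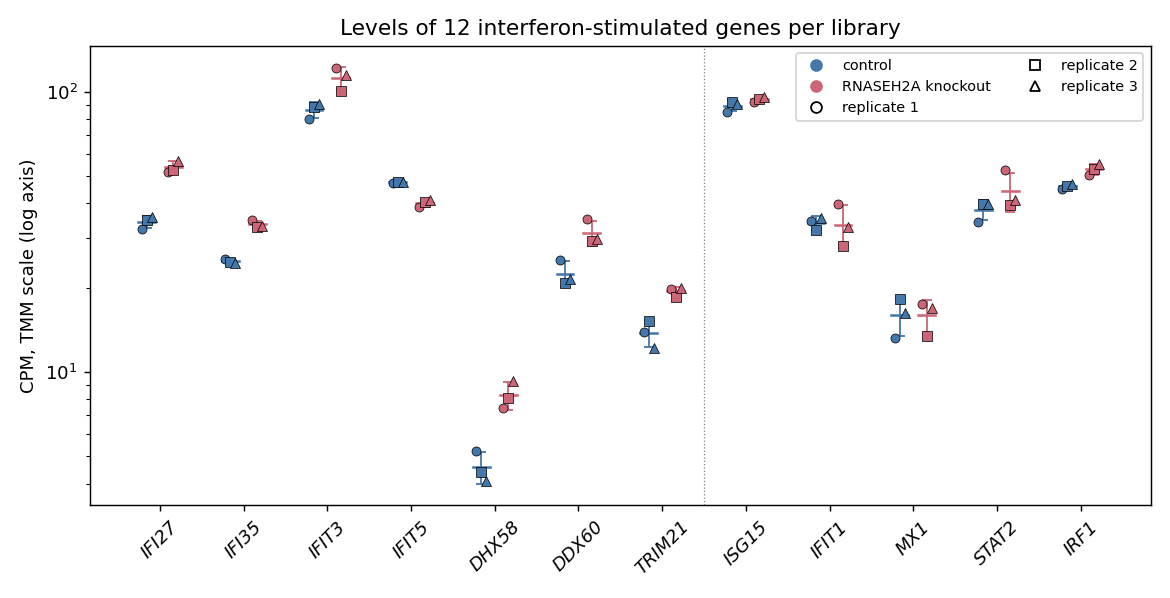
CPM on a log axis in each library for the 7 members that passed (left of the dotted line) and 5 central members that did not (right), with bars for the mean and SD of 3 libraries. Symbols mark replicate numbers. The 7 on the left have no overlap between groups, as does IRF1, while ISG15, IFIT1, MX1 and STAT2 overlap.

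Per length, the members ranged over several orders of magnitude in these cells. LGALS3BP, a secreted glycoprotein, had the highest level at 280 CPM per kb of principal transcript over the 6 libraries, followed by IFITM3 at 206, BST2 at 140, ISG15 at 129 and IFI27 at 60.7. The lowest were IFI44L at 0.0995, CMPK2 at 0.386 and OAS1 at 0.562 CPM per kb. The genes that passed lay between 2.45 CPM per kb for DHX58 and 60.7 for IFI27, so neither the most nor the least abundant members were among them.

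Each member was set beside the median log2 fold change of its nearest tested genes, up to 10 on each side with other members left out. For DHX58 the neighbours stood at 0.00, for DDX60 at 0.04, for IFIT3 and IFIT5 at 0.07, for IFI27 at 0.09 and for TRIM21 at -0.10. Each of these members thus differed from its surroundings by at least 0.31 on the log2 scale. For IFI35 the neighbours stood at 0.16, which leaves 0.27 of its 0.43. The picture was different for 3 members that were lower without passing. Neighbours of BST2 stood at -0.30, of IFITM3 at -0.22 and of GBP1 at -0.20, so that these genes differed from them by 0.06, -0.01 and -0.02. IFITM1 and IFITM2, beside the same neighbours as IFITM3, differed from them by 0.57 and 0.51. The estimate for USP18 was -0.63 and its neighbours stood at 0.13. These differences carry no test.

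**Figure D4:**
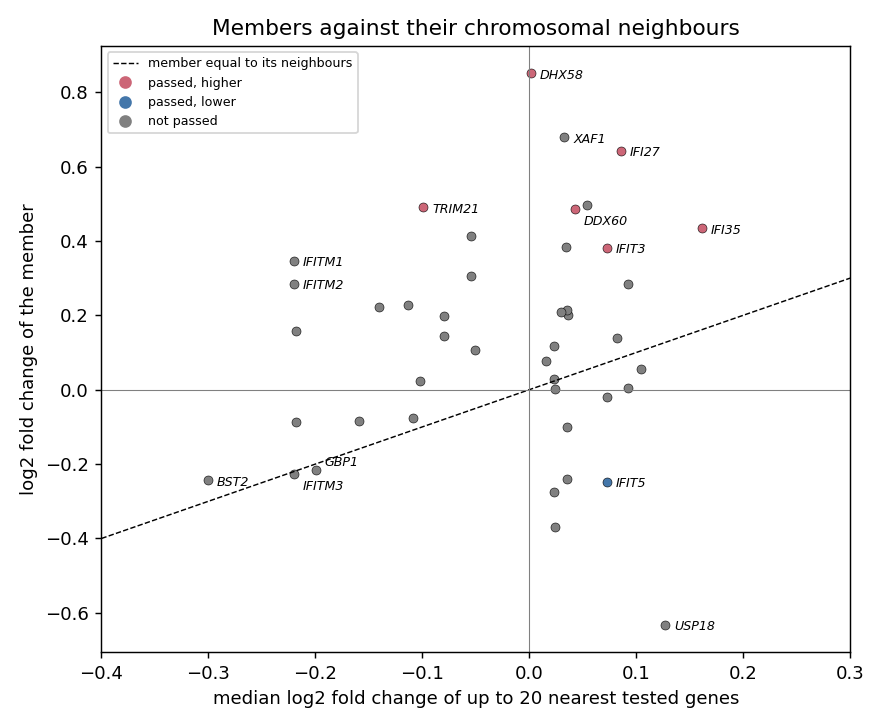
Log2 fold change of each member (vertical) against the median of up to 20 nearest tested genes on its chromosome (horizontal), with red and blue for members that passed as higher and lower. The dashed line marks equality. BST2, IFITM3 and GBP1 sit close to the line, while DHX58, IFI27 and TRIM21 lie well above it.

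Few other genes of the pathway passed. Of 79 listed, 60 were counted and 53 tested. Of these, 4 rose, 0 fell and 49 did not pass, with a median log2 fold change of 0.04. The share called was 7.55%, against 12.1% of all tested genes. Split by direction, 7.55% were called higher against 5.88% of all genes, and 0% lower against 6.22%. With 2 libraries left out as above the count was 18 of 53 (34.0%, against 30.4% of all tested genes). None of the 14 tested receptor and signalling genes passed, and 3 had an unadjusted p under 0.05 (21.4%, against 27.7% of all tested genes). Groups did not overlap at 4 of the 14 (28.6%, against 33.5%), with the knockout above at 0 and below at 4. Log2 fold changes lay above 0 for 7 and below for 7. IFNAR1, the receptor chain, was at 98.7, 102 and 107 CPM in controls and 96.7, 112 and 105 in knockouts (0.03 ± 0.07 SE, adjusted p = 0.831).

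IRF9, the DNA-binding subunit of ISGF3, had 0 to 8 counts, and AL136295.5 covers 100% of its principal exonic bases on the same strand. IFNAR2 was likewise at under 1 CPM with 67.8% shared with AP000295.1, so neither level could be read. RIGI, the RIG-I gene, had 4 to 18 counts and was not in the fit (exact permutation p = 0.2, where 0.1 is the smallest that 3 against 3 can give). IFIH1, which encodes MDA5, was at 14.6, 15.96 and 14.4 CPM in controls and 19.9, 16.2 and 17.8 in knockouts, with no overlap and without passing (0.26 ± 0.11 SE, adjusted p = 0.151). The interferon genes counted, IFNG and IFNL1, had 0 counts in all 6 libraries, which allows up to 0.118 CPM in the shallowest, and the other 19 listed interferon genes were not analysed here.

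The 4 that rose are 3 further interferon-stimulated genes and 1 negative regulator. PARP10, a mono-ADP-ribosyltransferase, was at 35.5, 38.3 and 39.6 CPM in controls and 47.2, 48.6 and 49.1 in knockouts (0.36 ± 0.08 SE, adjusted p = 0.0163). APOL1, a trypanosome-killing apolipoprotein, rose by 0.44 ± 0.12 SE (adjusted p = 0.0417) and HELZ2, a helicase coactivator, by 0.24 ± 0.06 SE (adjusted p = 0.0386). PTPN6, the phosphatase SHP-1 that is best known from blood cells, went from 3.07, 2.81 and 2.38 CPM to 5.17, 4.17 and 4.28 (0.72 ± 0.18 SE, adjusted p = 0.0337). Each of these 4 calls ended when any 1 control library or knockout replicate 3 was left out, with an adjusted p of up to 0.172. The other 6 of the 7 negative regulators did not pass, among them PTPN1 and PTPN11, which dampen the same signalling. SOCS1, in the same list, was lower in every knockout library without passing (-0.32 ± 0.12 SE, adjusted p = 0.104). Of the 7, 5 lay above 0 and 2 below.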

How the data were processed

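Poly-A selected, strand-specific mRNA libraries were made from MDA-MB-231 cells, per the labels' protocols. The submitters' processing notes name FastQC, STAR 2 and GRCh38. The sources used here give no counting tool, annotation or strand setting. The authors deposited whole-number read counts per gene symbol, used for all main results, and a table of log2 CPM values for 15066 genes, used for 1 alternative.

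Counts were filtered with filterByExpr, scaled by TMM and tested with edgeR 4.0.16 in R 4.3.3 (quasi-likelihood, group term only), two-sided, with Benjamini-Hochberg adjustment over 14199 genes. SE is the log2 fold change divided by the square root of F. On simulated counts for this comparison over 14034 genes, with 200 of the filtered genes changed, the test recovered 47.4% of 1.5-fold and 77.0% of 2-fold changes, and 6.11% of its calls were false. Other settings tried were DESeq2 1.42.0, limma-voom (limma 3.58.1), RLE factors, library totals, no filter, a mean of 1 CPM, the replicate block, the log2 CPM table and each library left out. No pair of replicates agreed within counting noise. Counting error only is covered by the limit of 3 counts. Even numbers made up 68.6% of values of genes with 1 to 30 counts, so reads may be counted in pairs and that limit may be too low. Gene positions and promoters are from RefSeq on GRCh38.p14, exon overlaps and lengths from GENCODE 29.

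Members, lists and branches were chosen with earlier results of these data known. Values per library are given for each member that passed and for 16 fixed by name, other members by range, except that IFITM2 and XAF1 are also given per library. Outside the members, IRF9, IFNAR1, IFNAR2, RIGI, IFIH1 and those that passed are named; 1 gene of this rule is not reported here. PTPN1, PTPN11 and SOCS1, and the library values of IFITM2 and XAF1, were added after their values were seen.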

Additional observations from a re-analysis of the deposited data

How the results depend on the processing

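The count of members called higher was 6 to 9 over the alternatives that keep all libraries and 1 to 9 when leaving out 1 library. The count called lower was 1, and was 0 with RLE factors, library totals only, no low count filter or the deposited log2 CPM, 3 with the replicate block, 0 to 5 when leaving out 1 library, and 7 without control replicate 1 and knockout replicate 1. Over all genes 1718 were called, 3099 with the replicate block, 524 to 3430 when leaving out 1 library and 4312 without those 2 libraries. The other pathway genes numbered 4, then 11 with the block, 0 to 13 leaving out 1 library and 18 without those 2. The members' median log2 fold change, 0.14, ran from 0.12 to 0.15 over the other alternatives, from 0.07 to 0.21 leaving out 1 library, and was 0.02 without those 2 libraries. Why single libraries move these counts was not tested. No member changed sign under the settings that keep all libraries. With 1 library left out 1 to 5 of the 44 changed sign, and without the 2 libraries 7, none of them called with 6 libraries; OASL, DTX3L, PARP14, SAMD9, IFIT2, IFI44L and EPSTI1 were among them. Of the genes followed singly, those that changed sign when 1 library was left out ranged as follows: UBE2L6 (-0.0421 to 0.0985), IFIT1 (-0.158 to 0.0957), MX1 (-0.116 to 0.117), IFNAR1 (-0.0157 to 0.0852) and IFNAR2 (-0.0420 to 0.176).

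Replicate numbers are shared by the groups. Over all tested genes, same-numbered libraries deviated together by a correlation of 0.32, 0.14 and 0.09. Control replicate 1 correlated at -0.24 and -0.15 with knockout replicates 2 and 3. Not every library correlated best with its own number, since control replicate 3 was highest with knockout replicate 2, at 0.14. Over the 44 members alone, the same-numbered pairs stood at 0.01, -0.18 and -0.13. Whether the numbers pair the samples is thus not settled, and the main fit did not pair them. With the replicate block IFITM2, IFI6 and XAF1 were added on the higher side and BST2 and GBP1 on the lower.

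At a level near 1 CPM, as for OAS1, CMPK2 and IFI44L, intervals reached from 0.515 to 2.25-fold, so moderate changes were not detectable at this depth.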
